A study of Homo sapiens with 8 samples.

Results

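The KLHL and KBTBD genes encode proteins with a BTB domain and, in most, a BACK domain and Kelch repeats. The BTB domain docks on the scaffold CUL3 and the Kelch repeats hold a substrate, so that each protein acts as an exchangeable substrate receptor of the CUL3-RBX1 ubiquitin ligase. CUL3 is switched on by attachment of NEDD8 and off by its removal through the COP9 signalosome, and the receptors decide which proteins are marked, among them Aurora kinases and PLK1 in dividing cells, WNK kinases in the kidney and actin regulators in neurons and muscle. The members were chosen by symbol, KLHL or KBTBD followed by a number, which found 46 of the 60282 genes listed (37 KLHL and 9 KBTBD genes). Of these, 30 (23 KLHL and 7 KBTBD genes) were selected for testing on their measured level, over 1 CPM (a gene's counts scaled by its library's total) in at least 4 of the 8 libraries, as were 14073 genes in all. Of the 30, 29 were over 1 CPM in all 8 libraries. KBTBD8 was over 1 CPM in 3 vehicle and 4 TP-472 libraries, so that its TP-472 libraries alone met the filter and its vehicle libraries alone did not.

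RNA was measured in SK-UT-1, an established human uterine leiomyosarcoma cell line and thus a single tumor. The cells received DMSO vehicle or 5 µM TP-472, a small molecule that inhibits the bromodomains of BRD9 and BRD7, for 48 h, with 4 libraries in each group, and no group carried a further genetic change. The study's methods speak of biological replicates for its experiments in general, but no label says which libraries came from separate cultures, so p-values measure the spread between these libraries, which may be partly technical. Total counts ran from 32574716 to 36634184 in vehicle and from 36246466 to 38545695 in TP-472. The target genes themselves did not pass the threshold described below, with log2 fold changes of -0.16 for BRD9 (adjusted p = 0.486) and 0.11 for BRD7 (adjusted p = 0.324). Without vehicle replicate 3, described below, BRD9 turned to 0.06 (adjusted p = 0.44) and BRD7 was at 0.11. The smooth muscle label was only partly borne out by its markers: ACTA2 was at 160 ± 16.7 CPM (SD, n = 4) in vehicle, whereas MYH11 and ACTG2 were at 0.00703 ± 0.0141 and 0.0214 ± 0.0143 CPM. MYH11, which was not tested, was higher in TP-472 with no overlap, at 0.236 ± 0.0325 CPM. Of 11 smooth muscle markers 9 were tested and 4 passed the threshold lower (TAGLN, DES, MYLK and LMOD1), where 14.9% of all genes did. Without vehicle 3 there were 5, with ACTA2 at -0.59. DES and LMOD1 were under 1 CPM in every TP-472 library, so that they met the filter through vehicle alone. After removal of the GC trend TAGLN was under the fold limit (-0.49, adjusted p = 0.0163). The most abundant smooth muscle marker, TPM2, was at 448 ± 147 CPM in vehicle and 346 ± 27.4 in TP-472, which did not pass (-0.37, adjusted p = 0.173, and -0.12 without vehicle 3). Their summed level was 804.8, 878.2, 1210 and 879.8 CPM in vehicle and 731.7, 741.2, 748.8 and 683.1 CPM in TP-472. The part of these markers in the results on KLHL and KBTBD genes was not tested. Of 8 epithelial markers 4 were tested, with KRT18 higher (7.39 ± 0.871 to 15.6 ± 1.47 CPM) and KRT19 lower (8.88 ± 1.78 to 4.93 ± 1.15 CPM) in TP-472, while EPCAM was at 0.731 ± 0.0983 CPM in vehicle and 0.245 ± 0.0477 in TP-472. CLDN3 passed without vehicle 3 (1.06, adjusted p = 0.00356) and after removal of the GC trend (1.19, adjusted p = 0.00154). After that removal KRT8 also passed (0.66, adjusted p = 0.0317), whereas KRT19 was under the fold limit (-0.51). Of 6 leukocyte markers CD68 alone was tested (7.53 ± 0.573 to 10.4 ± 1.48 CPM, not past the threshold), and CD3E was at 0 in all 8 libraries. None of 4 endothelial markers was tested, and the most abundant, VWF, was at 0.203 ± 0.0645 CPM in TP-472.

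One library stood apart before any comparison. Vehicle replicate 3 had a median Spearman correlation of 0.914 with the other vehicle libraries, while each remaining library had at least 0.988 with its own group. In this library 20 of the 30 KLHL and KBTBD genes were lower than in every other vehicle library, 8 were higher, and 2 lay within. Over all genes tested the corresponding shares were 43.7% lower and 43.2% higher, against 66.7% lower among the 30 genes. The deviation followed base composition. The 20 genes that were lower in vehicle 3 than the mean of the others had a median GC content of 40.2% in their longest transcript, and the 10 that were higher had 57.5%. Across the 30 genes, which share these libraries, Spearman's rho between GC content and the deviation was 0.77, close to 0.768 over 13970 genes. KLHL26 and KLHL29 deviated most upward, by 1.55 and 1.56 on the log2 scale, and KLHL2 most downward, by -1.47. The spread of the family in vehicle depended on this library: the median coefficient of variation over the 30 genes was 28.1% with it, 4.88% without it and 5.7% in TP-472. Values without vehicle 3 are therefore given for the changed members and for most other genes named.

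**Figure D1:**
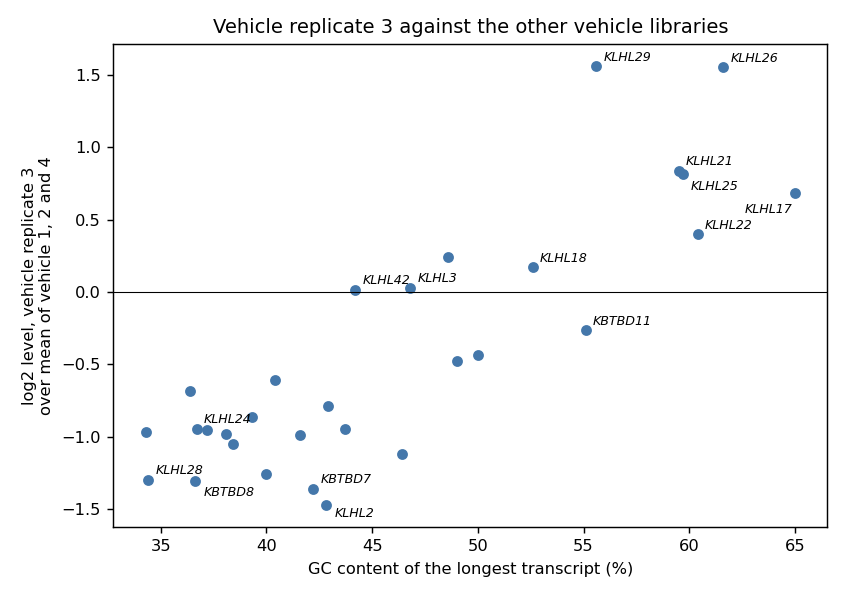
Each point is one of the 30 tested KLHL and KBTBD genes, with the GC content of its longest transcript (%) on the x axis and the log2 difference between vehicle replicate 3 and the mean of vehicle 1, 2 and 4 on the y axis. The 20 genes under the zero line had a median GC content of 40.2%, and the 10 above it 57.5%.

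TP-472 treatment raised 3 family members and lowered 4. KBTBD8, KLHL18 and KLHL21 rose, and KLHL22, KLHL24, KLHL17 and KLHL3 fell. A gene was called changed at an adjusted p under 0.05 (edgeR quasi-likelihood F test, Benjamini-Hochberg over all genes tested) with a fold change over 1.5. The 7 changed genes are 23.3% of the 30, where 26.9% of all genes tested were called in either direction, 12% higher and 14.9% lower. The share in the family was thus close to that of all genes. In bulk RNA, a lower level in fewer cells and in every cell cannot be told apart. Its median log2 fold change was 0.15, against -0.03 over all genes, and the median size of change regardless of sign was 0.37, against 0.40. Without vehicle 3 the median of the 30 genes was 0.07 and 6 genes were called, 3 in each direction, all of them among the 7, where 25.5% of all genes were called, 12% higher and 13.4% lower. KLHL17 was the one that dropped out. With no fold limit, 10 of the 30 genes (33.3%) had an adjusted p under 0.05, beside 36.3% of all genes. Without vehicle 3 these were 19 genes (63.3%), beside 57% of all genes.

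**Figure D2:**
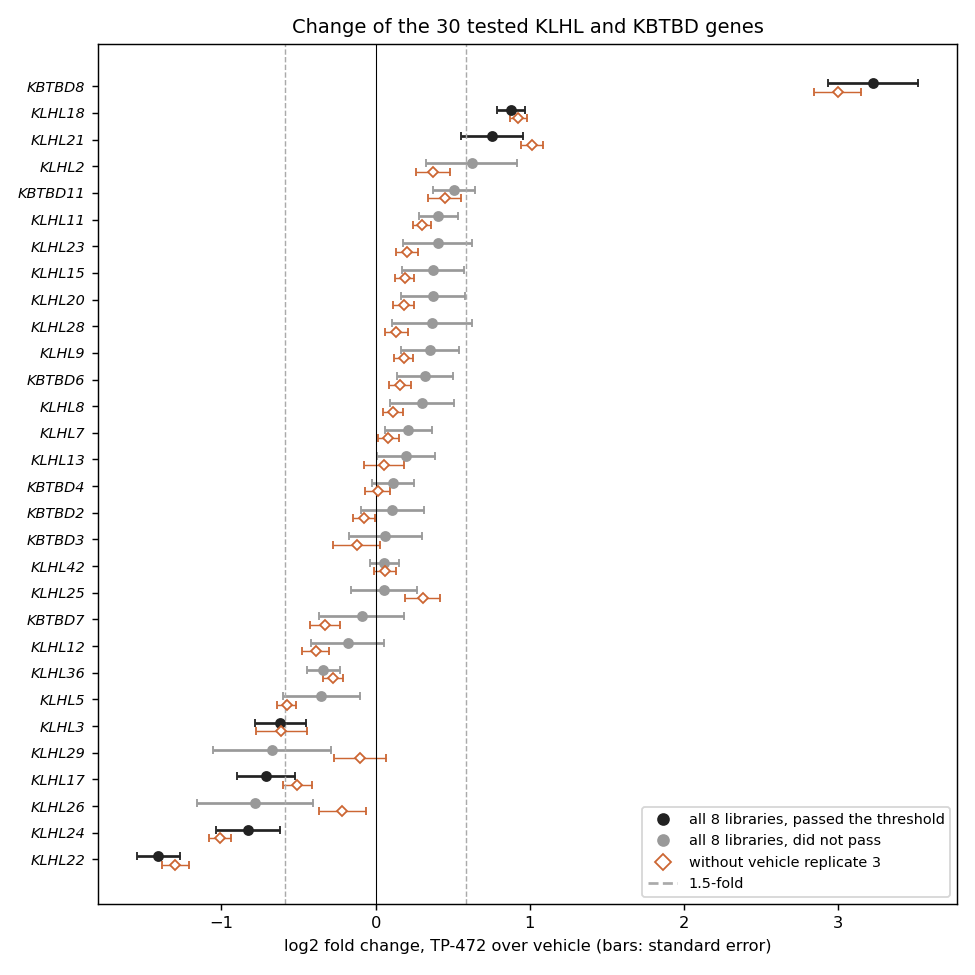
Log2 fold change of TP-472 over vehicle (x axis) for the 30 tested genes, with standard errors as bars; filled circles are the fit to all 8 libraries (black, past the threshold) and open diamonds the fit without vehicle replicate 3. KBTBD8 stands at 3.23 and KLHL22 at -1.41, and the diamonds of KLHL26 and KLHL29 lie closer to 0 than their circles.

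KBTBD8 showed the largest change of the family. It is the receptor through which CUL3 modifies the ribosome biogenesis factors TCOF1 and NOLC1, a step known from neural crest specification. The gene lies on chromosome 3 at chr3:66998307-67011210 (plus strand, GRCh38, GENCODE release 29). Levels, here and below in CPM scaled by edgeR's TMM method, were 1.72, 2.13, 0.84 and 2.39 in vehicle libraries 1 to 4 and 13.9, 17.4, 16.4 and 18.8 in TP-472 libraries 1 to 4. Every TP-472 library lay far above every vehicle library. The mean went from 1.77 ± 0.678 to 16.6 ± 2.08 (SD, n = 4), a log2 fold change of 3.23 (SE 0.29, adjusted p = 0.000158), or 9.38-fold. Without vehicle 3 it was 2.998 (adjusted p = 8.99e-07). Levels were also counted per kilobase of exon, merged over all transcripts of a gene, for a rough comparison between genes. Merged exons can be longer than any single transcript (KLHL3: 11854 bases, longest transcript 6981), so ranks depend on this choice. By this measure KBTBD8 moved from rank 28 to rank 19 of the 30 genes. It was also the one tested gene with a library under 1 CPM, vehicle 3. Of its known substrates, NOLC1 had a log2 fold change of 0.56 (adjusted p = 0.00493), just under the fold limit, and TCOF1 of -0.22 (adjusted p = 0.607). Without vehicle 3, NOLC1 passed with 0.65 (adjusted p = 2.64e-05), and TCOF1, at 328 CPM in that library against 117 to 136 CPM in the other vehicle libraries, turned to 0.28 (adjusted p = 0.00859), under the fold limit. After removal of the GC trend with all libraries, NOLC1 did not pass (0.48, adjusted p = 0.00516) and TCOF1 was at 0.0029 (adjusted p = 0.991).

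Of the 6 tested receptors with a known role in mitosis, KLHL18 and KLHL21 rose, KLHL22 fell and 3 did not pass, where 12% of all genes were called higher and 14.9% lower. KLHL18 acts with CUL3 on Aurora A at centrosomes before mitotic entry, KLHL21 brings CUL3 to Aurora B at the spindle midzone, and KLHL22 acts on PLK1 at kinetochores and on DEPDC5 in amino acid sensing. KLHL18 (chr3:47282917-47346816, plus strand) was at 40.9, 40.6, 46.8 and 43.2 CPM in vehicle and 78.1, 77.2, 79.6 and 81.0 CPM in TP-472. The groups were far apart, with little spread in either. Its log2 fold change was 0.88 (SE 0.09, adjusted p = 0.000279), and 0.93 without vehicle 3 (adjusted p = 2.35e-06). KLHL21 (chr1:6590724-6614607, minus strand) was at 15.4, 13.5, 26.1 and 14.9 CPM in vehicle and 30, 29.3, 29.7 and 28.96 CPM in TP-472. Vehicle 3 was far above the other vehicle libraries yet below all TP-472 libraries. The log2 fold change was 0.75 (SE 0.20, adjusted p = 0.0198), and 1.01 without that library (adjusted p = 5.2e-06). The call for KLHL21 was lost when vehicle 1 or TP-472 1, 2 or 3 was left out, with adjusted p-values from 0.051 to 0.0568.

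KLHL22 (chr22:20441519-20495883, minus strand) fell. It was at 18.8, 18.1, 23.8 and 17.3 CPM in vehicle and 7.30, 8.06, 6.74 and 7.27 CPM in TP-472, so that the highest TP-472 library was under the lowest vehicle library. Its log2 fold change was -1.41 (SE 0.14, adjusted p = 0.00024), and -1.30 without vehicle 3 (adjusted p = 3.94e-06). A share of 5.84% of the 31-base words of its longest transcript also occurs in the gene AC007731.5, which stood at 0.782 CPM or less in every library. As a share of the summed CPM of KLHL18, KLHL21 and KLHL22, KLHL22 made up 25.0%, 25.1%, 24.6% and 22.9% in vehicle and 6.32%, 7.04%, 5.81% and 6.2% in TP-472. This is a description, since the 3 genes were put together for their change. Vehicle 3 stood with its group in the share of KLHL22 but not in that of KLHL21, which was 27.0% there and 18.7% to 20.5% in the other vehicle libraries.

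**Figure D3:**
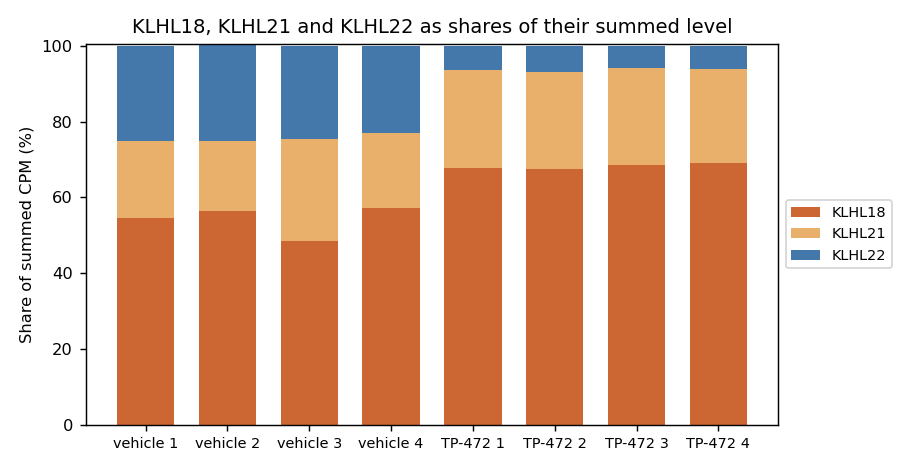
Stacked bars give KLHL18, KLHL21 and KLHL22 as percent of their summed CPM (y axis) in each of the 8 libraries (x axis). The share of KLHL22 lies between 22.9% and 25.1% in vehicle and between 5.81% and 7.04% in TP-472.

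The 3 mitotic receptors that did not pass were KLHL9, KLHL13 and KLHL42. KLHL9 and KLHL13, which form a receptor complex for Aurora B, had log2 fold changes of 0.35 (adjusted p = 0.163) and 0.20 (adjusted p = 0.431). KLHL42, a receptor for the microtubule-severing protein katanin, had 0.06 (adjusted p = 0.654). KLHL9 was much the more abundant partner, and KLHL13 made up 3.25 ± 0.212% of their sum in vehicle and 2.9 ± 0.305% in TP-472 (exact permutation test over libraries, two-sided, p = 0.171; adjusted p = 0.171 over 3 pairs; the smallest possible p is 0.0286). The kinases named above did not pass the threshold: AURKA had 0.28 (adjusted p = 0.195), AURKB -0.21 (adjusted p = 0.139) and PLK1 -0.23 (adjusted p = 0.395). Without vehicle 3 these were 0.14, -0.15 and 0.03, so that the direction of PLK1 turned, and KLHL9, KLHL13 and KLHL42 were at 0.18, 0.05 and 0.06.

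KLHL24 (chr3:183635568-183684477, plus strand) encodes a receptor that degrades itself and keratin 14, and variants that stabilize it are known in skin fragility. It was at 60.8, 69.9, 33.2 and 61.0 CPM in vehicle and 32.4, 32.6, 32.5 and 29.3 CPM in TP-472. Vehicle 3 was barely above the TP-472 libraries, and the other vehicle libraries were far above them. The log2 fold change was -0.83 (SE 0.21, adjusted p = 0.0147), and -1.01 without vehicle 3 (adjusted p = 5.55e-06). KLHL17 (chr1:960587-965715, plus strand), known as actinfilin, binds actin in neurons and had the highest GC content of the 30 genes, 65.0%. Its levels were 14.9, 15.9, 25.2 and 16.3 CPM in vehicle and 12.01, 11.4, 9.54 and 11.3 CPM in TP-472. The groups did not overlap, but vehicle 3 was well above the rest. The log2 fold change of -0.71 (SE 0.19, adjusted p = 0.0174) became -0.51 without that library (adjusted p = 0.00141), under the fold limit, and -0.28 after removal of the GC trend (adjusted p = 0.105). The call was also lost without TP-472 3 (-0.65, adjusted p = 0.0584) and with the replicate number as a block (adjusted p = 0.0601).

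KLHL3 (chr5:137617500-137736090, minus strand) is the receptor for WNK kinases, which control salt transport in the kidney. Per kilobase of merged exon, which is long for this gene, it was the lowest of the 30 genes in both groups. It was at 3.69, 2.82, 3.50 and 3.79 CPM in vehicle and 2.41, 1.92, 2.25 and 2.40 CPM in TP-472, with no overlap but a small gap. The log2 fold change was -0.62 (SE 0.17, adjusted p = 0.0195), and -0.61 without vehicle 3 (adjusted p = 0.0103). The call was lost without vehicle 4 (-0.57, under the fold limit), TP-472 2 (-0.55, adjusted p = 0.0639) or TP-472 3 (adjusted p = 0.0551), with no filter on low counts (adjusted p = 0.056), and with the replicate number as a block (adjusted p = 0.053). Its paralog KLHL2, which binds actin and also WNK kinases, was at 10.8, 14.3, 4.43 and 11.7 CPM in vehicle and 15.6, 15.9, 17.3 and 14.8 CPM in TP-472, and its log2 fold change of 0.62 did not pass (adjusted p = 0.127), nor did the 0.37 without vehicle 3 (adjusted p = 0.0143), under the fold limit. KLHL3 made up 25.4%, 16.5%, 44.2% and 24.5% of the sum of both in vehicle and 13.4%, 10.8%, 11.5% and 14.0% in TP-472. The groups did not overlap. The log2 ratio of KLHL3 over KLHL2 differed by -1.36 (-0.99 without vehicle 3). On that ratio, with all libraries, the exact two-sided permutation test gave p = 0.0286, its smallest value, with 0.0858 after adjustment over 3 pairs. KLHL2 shares 10.9% of its 31-base words with the pseudogene KLHL2P1, so its estimate is less certain.

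**Figure D4:**
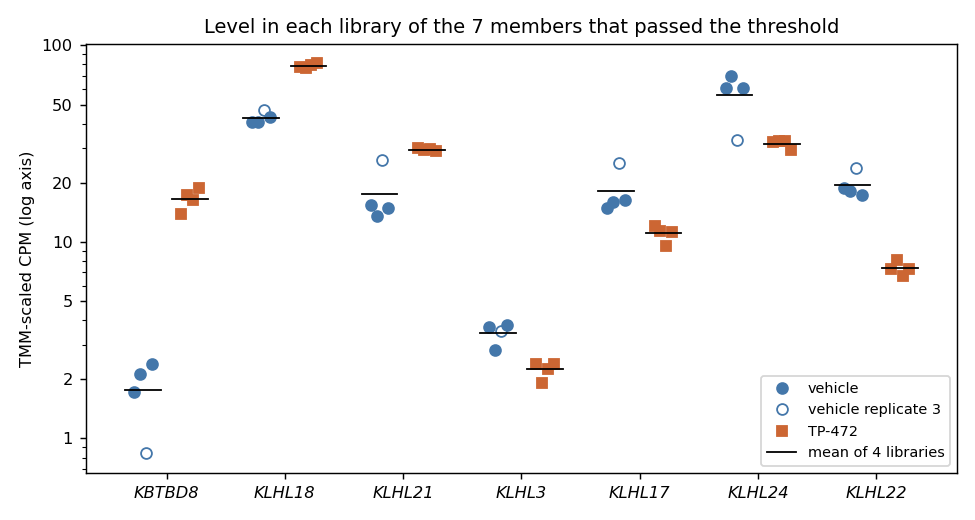
TMM-scaled CPM (log axis) of the 7 changed genes in each library, with circles for vehicle, an open circle for vehicle replicate 3, squares for TP-472 and a line at the mean of 4. No gene has overlapping groups, although the open circle of KLHL24, at 33.2 CPM, comes close to the TP-472 libraries.

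Of 6 tested genes linked to actin or small GTPases, KLHL17 alone fell, where 14.9% of all genes did, and none rose. Without vehicle 3 none was called. KBTBD6 and KBTBD7, which lie near each other on chromosome 13 and together act on the Rac activator TIAM1, had 0.32 (adjusted p = 0.187) and -0.09 (adjusted p = 0.815), and 0.16 and -0.33 without vehicle 3. The log2 ratio of KBTBD7 over KBTBD6 differed by -0.34 (exact permutation test, two-sided, p = 0.114, adjusted p = 0.171). KBTBD7 made up 27.3%, 29.3%, 21.0% and 28.3% of their sum in vehicle and 21.2%, 20.3%, 24.6% and 21.8% in TP-472. Vehicle 3 lay among the TP-472 values here, and 14.3% of the 31-base words of KBTBD7 also occur in KBTBD6. GABARAP, the autophagy protein that recruits both receptors to membranes, fell from 61.4 ± 5.17 to 33.7 ± 0.809 CPM (SD, n = 4 each; log2 fold change -0.87, adjusted p = 0.000427).

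KLHL12, which acts on SEC31A in the making of large secretory vesicles, had -0.18 (adjusted p = 0.565), and SEC31A itself -0.22 (adjusted p = 0.125). KLHL12 shares 16.9% of its 31-base words with AC007731.2, so reads may have been split between them. Without vehicle 3 KLHL12 was at -0.39 (adjusted p = 0.00348), under the fold limit. KLHL25, a receptor for ACLY, had 0.05 and KBTBD2, a receptor for the p85 subunit of PI3 kinase, 0.11, which without vehicle 3 were 0.30 and -0.08. KLHL15 and KBTBD4, CUL3 receptors for nuclear proteins, had 0.37 (adjusted p = 0.17) and 0.11 (adjusted p = 0.533), and 0.19 and 0.01 without vehicle 3. Below the fold limit, KBTBD11 and KLHL11 had 0.51 (adjusted p = 0.0189) and 0.41 (adjusted p = 0.0345), and KLHL36 had -0.34 (adjusted p = 0.0338). Without vehicle 3 these were 0.45, 0.30 and -0.27. KBTBD11 passed after removal of the GC trend (0.60, adjusted p = 0.0156) and without vehicle 2 (0.59, adjusted p = 0.0182). KLHL11 was the most abundant member per kilobase of merged exon in both groups, at 32.6 CPM per kilobase in vehicle and 43.2 in TP-472. KLHL12 (16.8), KLHL9 (15.5) and KLHL5 (13.8) followed in vehicle, and KLHL9 (19.9), KLHL15 (15.3) and KLHL12 (14.8) in TP-472.

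KLHL26, KLHL29 and KLHL5 moved far from their values without vehicle 3, though none of them passed the threshold with or without it. KLHL26 and KLHL29 had large changes that did not pass, -0.78 (adjusted p = 0.129) and -0.67 (adjusted p = 0.193). KLHL26 was at 7.34, 4.71, 17.1 and 5.45 CPM in vehicle and 5.13, 4.82, 4.94 and 5.21 CPM in TP-472. The groups overlapped apart from vehicle 3, and without it the change was -0.22 for KLHL26 and -0.10 for KLHL29. KLHL5, by contrast, was at 79.3, 88.8, 34.8 and 81.9 CPM in vehicle and 57.2, 56.7, 55.1 and 54.3 CPM in TP-472. Its log2 fold change of -0.35 (adjusted p = 0.293) became -0.58 without vehicle 3 (adjusted p = 4.49e-05), just under the fold limit. With a GC correction as well as without vehicle 3, KLHL5 passed (-0.60, adjusted p = 4.06e-05). Groups did not overlap for 17 of the 30 genes (56.7%), 12 higher and 5 lower in TP-472, where 45.4% of all genes did not overlap, 23.8% higher and 21.6% lower. The summed level of the 30 genes was 939.2, 999.0, 687.2 and 977.2 CPM in vehicle and 992.7, 1012, 994.7 and 1030 CPM in TP-472, and vehicle 3 alone was far from the rest.

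The 16 members not tested were at or near 0. KLHL34 and KBTBD12 had no count in any library, and no other gene except KLHL35 had more than 17 counts. KLHL35 lay just outside the filter, with 27, 26, 90 and 25 counts in vehicle and 14, 29, 45 and 46 in TP-472, over 1 CPM in 3 libraries. Just inside it, KBTBD3 was at 2.30, 2.13, 1.13 and 2.19 CPM in vehicle and 1.99, 1.78, 2.28 and 2.06 CPM in TP-472. None of the 5 muscle members (KLHL31, KLHL38, KLHL40, KLHL41 and KBTBD13), several of which are known from striated muscle and its diseases, was tested. KLHL31 had 2, 4, 1 and 0 counts in vehicle and 16, 14, 8 and 17 in TP-472. It was the one untested member that passed in a fit without a filter (log2 fold change 2.80, adjusted p = 0.0102), in which 15.3% of genes were called, and its level stayed under 0.5 CPM.

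The set of RefSeq sequences upstream of the start used here (GRCh38.p14, 250 bases, 1 start per gene) held 25 of the 30 tested genes. KBTBD8, KBTBD2, KBTBD7, KBTBD11 and KLHL23 were not in that set. Motifs were searched on both strands, and windows are shown only for the changed genes that held a match. KLHL17 and KLHL3 also changed, but their windows held no match and are left out. Capitals mark the match: an ETS motif (CCGGAAG) in KLHL18, chr3:47282694-47282943, plus strand; an AP-1 motif (TGANTCA) in KLHL21, chr1:6602870-6603119, minus strand, and in KLHL24, chr3:183635373-183635622, plus strand; and an E-box (CACGTG) in KLHL22, chr22:20495796-20496045, minus strand.
KLHL18: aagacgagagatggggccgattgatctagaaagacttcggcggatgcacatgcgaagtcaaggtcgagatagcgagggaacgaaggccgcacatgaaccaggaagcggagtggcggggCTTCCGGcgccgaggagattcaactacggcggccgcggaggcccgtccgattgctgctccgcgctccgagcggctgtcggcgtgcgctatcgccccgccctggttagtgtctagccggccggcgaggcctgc
KLHL21: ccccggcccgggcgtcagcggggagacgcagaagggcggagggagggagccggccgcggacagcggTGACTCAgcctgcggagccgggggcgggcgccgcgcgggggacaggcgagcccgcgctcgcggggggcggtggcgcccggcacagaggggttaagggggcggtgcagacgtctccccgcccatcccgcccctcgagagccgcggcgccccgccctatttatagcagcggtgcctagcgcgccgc
KLHL22: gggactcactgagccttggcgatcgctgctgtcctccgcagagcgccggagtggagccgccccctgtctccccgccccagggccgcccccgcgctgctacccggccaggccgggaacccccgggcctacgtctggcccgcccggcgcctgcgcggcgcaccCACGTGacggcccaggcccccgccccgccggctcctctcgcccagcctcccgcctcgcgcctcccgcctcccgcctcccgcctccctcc
KLHL24: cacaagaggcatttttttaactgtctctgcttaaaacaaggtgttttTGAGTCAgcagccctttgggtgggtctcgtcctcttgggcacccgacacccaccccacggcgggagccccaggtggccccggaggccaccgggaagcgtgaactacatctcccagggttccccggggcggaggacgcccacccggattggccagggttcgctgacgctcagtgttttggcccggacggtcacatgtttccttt
Windows end at the RefSeq start used, which lies inside the GENCODE span given above for all 4 genes, so that each window overlaps that span. The window of KLHL21 lies wholly inside its span, and so is not upstream of the coordinates given for the gene. The match begins 132 bases before the start in KLHL18, 184 in KLHL21, 89 in KLHL22 and 203 in KLHL24. KLHL21, which rose, and KLHL24, which fell, thus held the same motif, and KLHL17 and KLHL3 held none of those searched. The AP-1 motif was in 3 of the 25 windows (KLHL12, KLHL21 and KLHL24) and in 6.6% of 27305 promoters, the ETS motif in 3 (KBTBD4, KLHL18 and KLHL20) and in 8.82%, and the E-box in 1 and in 6.49%. The CRE motif (TGACGTCA) was in KBTBD3 and in 1.77% of promoters. Matches describe these letters only and are not evidence of binding.

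Genes that work with the receptors were counted in the same fit, from lists of general knowledge. A list of 17 genes held the CUL3 core, its neddylation and exchange factors and the ubiquitin enzymes that work with it. Of these, 2 rose and 1 fell, where 26.9% of all genes were called. Their median log2 fold change was 0.28 (0.12 without vehicle 3, with 1 gene called in each direction). DCUN1D5, which helps to attach NEDD8 to cullins, rose from 53.6 ± 5.55 to 94.2 ± 6.18 CPM (SD, n = 4 each; 0.81, adjusted p = 0.000949), and UBE2D1, a ubiquitin-conjugating enzyme, had 0.71 (adjusted p = 0.0225). CAND2, a paralog of the receptor exchange factor CAND1, fell from 16.1 ± 7.85 to 5.97 ± 0.632 CPM (-1.43, adjusted p = 0.00656). CUL3 and RBX1 themselves did not pass, at 0.30 (adjusted p = 0.175) and 0.33 (adjusted p = 0.451), and at 0.20 and 0.06 without vehicle 3. None of the 9 COP9 signalosome genes passed (median 0.13), with COPS3 at 0.58 (adjusted p = 0.0392) and COPS2 at 0.56 (adjusted p = 0.0532). Without vehicle 3, UBE2D1 was under the fold limit, at 0.53 (adjusted p = 0.000188), CAND2 was at -1.04, and COPS3 and COPS2 were at 0.42 and 0.38.

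Of 3 other BTB-Kelch genes (median -0.25), none passed. KEAP1, the receptor for NRF2, had -0.25 (adjusted p = 0.127; -0.14 without vehicle 3), ENC1 0.34 (adjusted p = 0.0698) and IVNS1ABP -0.54 (adjusted p = 0.0958), and without vehicle 3 IVNS1ABP passed at -0.74 (adjusted p = 3.99e-05). Of 28 tested CUL3 adaptors without Kelch repeats (median -0.04), 6 were called, where 26.9% of all genes were. KCTD5, KCTD6 and RHOBTB3 rose by 0.75, 0.66 and 0.75 on the log2 scale, and SHKBP1, RHOBTB1 and ABTB1 fell, with -1.60, -1.33 and -1.66. SPOP had 0.04 (adjusted p = 0.816), and -0.04 without vehicle 3. Of 29 tested substrates and partners (median -0.12), 4 were called, where 26.9% of all genes were. HDAC2 rose (0.60, adjusted p = 0.0402), and GABARAP, PML (-1.65, adjusted p = 0.0281) and DVL2 (-0.66, adjusted p = 0.00989) fell. KCTD6, HDAC2 and DVL2 were under the fold limit without vehicle 3, at 0.47, 0.42 and -0.52. PML, at 99.6 CPM in that library against 20.3 to 35.8 CPM in the other vehicle libraries, was at -0.87 without it (adjusted p = 0.00372), and SHKBP1 at -1.06.

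**Figure D5:**
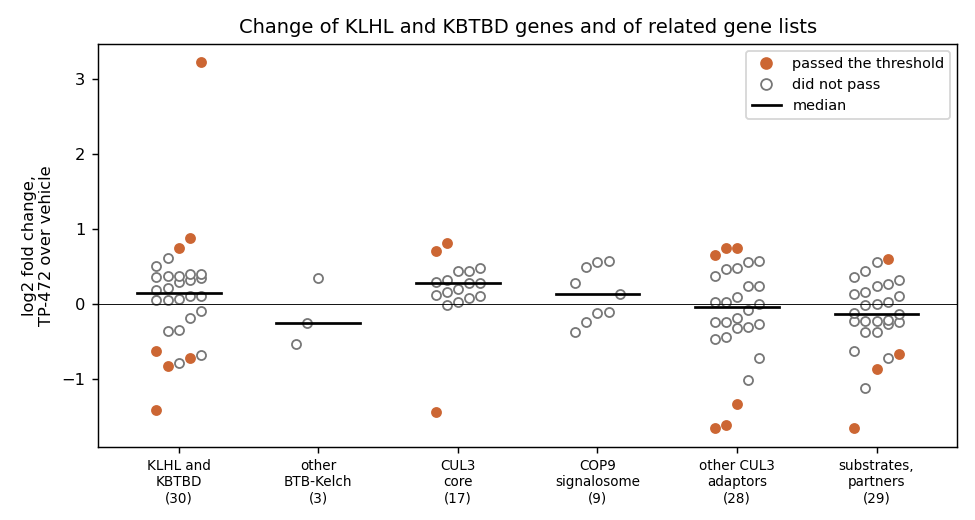
Log2 fold change of TP-472 over vehicle (y axis) for every tested gene of each list (x axis, number of genes in parentheses), filled where the gene passed the threshold, with a line at the list's median. KBTBD8, at 3.23, is the highest point of all lists shown.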

How the data were processed

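RNA-seq was deposited for 4 vehicle and 4 TP-472 libraries of SK-UT-1 cells. Values deposited by the authors are estimated counts: Salmon 1.4.0 (per the labels, with GRCh38) estimated transcripts, which tximport summed by gene with GENCODE annotation, unnormalized and unfiltered. Labels and methods differ on whether libraries kept strand, so overlapping antisense genes may share reads. Counts were rounded, filtered at over 1 CPM in at least 4 of 8 libraries, scaled by TMM and tested with edgeR 4.0.16 (quasi-likelihood F test, no covariates) in R 4.3.3, with Benjamini-Hochberg adjustment over 14073 genes. Between 13.8% and 23.2% of values per library were not whole. For abundant members the spread between libraries limits precision, and for the lowest (KBTBD8 in vehicle, KBTBD3, KLHL3) counting error does too. Deviations from group means of same-numbered libraries correlated at -0.055, 0.116, -0.171 and -0.177, so numbers were not treated as pairs. No library was a copy of another (lowest mean chi-square between 2 libraries 12.8). On simulated data for this comparison, 197 of 198 tested changed genes and 5 of 13727 unchanged genes were called. The simulation shifted 200 genes by 1 on the log2 scale and gave all genes the same spread. It had no outlying library and no GC trend, so its rates cannot be carried over to the measured libraries. Coordinates, exon length and GC content (99.3% of genes) come from GENCODE release 29.

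Named genes are all called members, close pairs, genes next to the filter, called genes of the lists and some lead genes of the pathway. KLHL5, KLHL11, KLHL36, KBTBD11, KLHL26, KLHL29, KLHL31, COPS2, COPS3, BRD9 and BRD7, the receptors of the substrates named and the combination of KLHL18, KLHL21 and KLHL22 were chosen after their values were seen. One gene of a list is not reported here. The members and lists were chosen with earlier results of these data known. Alternatives were DESeq2 1.42.0, limma 3.58.1 (voom), other scalings, filters and fold limits, a replicate block, a GC correction and each library left out, and a GC correction without vehicle 3 was added after seeing the data.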

Additional observations from a re-analysis of the deposited data

Results flagged for a closer look

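Levels of the 30 tested genes were examined in each group of 4 libraries for a highest or lowest library far from the others, as the gap to the nearest library over the whole range. Of 60 groups, 12 were above Dixon's critical value, where chance gives about 1 in 20. Vehicle 3 was the library in 10 of the 12. It was low for KLHL20 (0.965), KLHL8 (0.958), KLHL13 (0.907), KLHL15 (0.903), KLHL23 (0.872), KLHL9 (0.864), KLHL28 (0.86) and KBTBD3 (0.852), and high for KLHL17 (0.868) and KLHL21 (0.848). TP-472 replicate 4 was low for KLHL24 (0.915), at 29.3 CPM against 32.4 to 32.6, and high for KLHL23 (0.899), at 25.4 CPM against 22.6 to 22.9.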

How the results depend on the processing

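KBTBD8, KLHL18, KLHL22 and KLHL24 passed in all 18 alternatives run for them, KLHL21 in 14 of 18, KLHL17 in 13 of 18 and KLHL3 in 12 of 17. For KBTBD8 these include the filter of 5 CPM, which its TP-472 libraries alone met, so that this alternative is no further support for its call. Members called higher were 5 with no fold limit and 2 to 4 with a library left out. Members called lower were 2 to 4 with a library left out, 2 of them without TP-472 replicate 3. With the replicate number as a block, 2 members were called lower, since KLHL17 (adjusted p = 0.0601) and KLHL3 (adjusted p = 0.053) were lost, and 3055 genes in all. Left-out libraries gave 2690 to 4223 genes in all. The median log2 fold change of the 30 genes was 0.06 with the GC correction (0.0611; 0.056 without vehicle 3 as well), 0.20 over the 27 members that pass a filter of 5 CPM, 0.29 over the 44 members fitted with no filter (0.14 over the same 30), and 0.073 to 0.23 with a library left out, the lowest without vehicle 3. Signs turned only among genes that did not pass: KBTBD2 had -0.0066 with the GC correction, -0.12 with both and -0.076 to 0.21 with a library left out, lowest without vehicle 3; KBTBD3 -0.12, -0.11 and -0.12 to 0.16 in turn; KLHL42 -0.10 with the GC correction; KBTBD4 -0.033 with both; KBTBD7 0.0097 with limma-voom and -0.33 to 0.047 with a library left out; and KLHL25 -0.040 to 0.30 with a library left out. The cause of these changes was not tested. With 4 libraries a group, a permutation test cannot give a p under 0.0286, and the lowest genes rest on few counts: 29 to 85 per vehicle library for KBTBD8, and 39 to 135 per library for KLHL3 and KBTBD3.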
